A study of Mus musculus with 13 samples.

Results

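The mitochondrial ribosomal proteins are encoded in the nucleus, translated in the cytosol and imported, and in the mitochondrial matrix they form a large and a small ribosomal subunit around the RNAs of that ribosome. The ribosome translates the few mRNAs that mitochondrial DNA encodes, all of them for inner-membrane components of the respiratory chain and ATP synthase. Heart muscle, which depends on oxidative phosphorylation, is among the tissues affected when human mitochondrial ribosomal proteins such as MRPL3, MRPL44 or MRPS22 carry disabling mutations. The genes described here were those whose symbol begins with Mrpl or Mrps and a number and whose mean was at least 1 CPM (read counts scaled to the size of the library) over all libraries. Of 24061 gene symbols counted, 77 matched, 48 named for the large subunit and 29 for the small one, and all 77 passed that minimum. The lowest was Mrpl23, a protein at the peptide exit, with a mean of 3.54 CPM, and the next was Mrps33 with 8.44 CPM, so 0 matching symbols fell below the minimum.

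Poly(A) RNA was sequenced from the whole heart of chow-fed C57BL/6N males at 13 weeks of age, with 1 library per heart. The hearts carried the E3A knock-in allele of Cpt1b on both chromosomes (E3A/E3A, 5 hearts), on one (WT/E3A, 4 hearts) or on neither (WT/WT, 4 hearts). CPT1B is the muscle form of carnitine palmitoyltransferase 1, which admits long-chain fatty acids to mitochondria, and the allele makes it less sensitive to its inhibitor malonyl-CoA. Strain, sex, age and diet were the same in all groups, and gene counts do not show the allele itself. Libraries held 20.1 M to 52.6 M counted reads and 73986 to 211387 reads of the 77 genes, and 0 pairs of files were identical.

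The labels mark 4 libraries as potential outliers: E3A/E3A replicates 1 and 2, WT/E3A replicate 1 and WT/WT replicate 1. These 4 stood apart in composition. Myh6, which encodes the alpha myosin heavy chain, took 6.59% to 9.49% of counted reads in the noted libraries, against 3.90% to 4.61% in the other 9. All 10 cardiomyocyte markers were present, and in the 9 other libraries they summed to 101316 to 115420 CPM. Markers of other cells were low beside them but not absent. In the same 9 libraries the endothelial list summed to 985 to 1295 CPM and the fibroblast list to 838 to 960 CPM. The brown adipocyte list summed to 440 to 507 CPM, the macrophage list to 121 to 149 CPM and the white adipocyte list to 0.941 to 4.43 CPM. Of 6 blood genes, 4 were at 0 in every library. Atrial markers summed to 265 to 518 CPM in E3A/E3A, 188 to 348 CPM in WT/E3A and 182 to 301 CPM in WT/WT hearts of those 9, and the part of this in the results was not tested. In whole hearts, fewer cells of a type and less RNA per cell cannot be told apart. Each comparison below is therefore given with the 9 libraries (3 hearts per genotype) and with all 13.

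Transcript levels of the members spanned 41.2-fold over the 13 libraries, noted ones included. As mean CPM per kilobase of the principal annotated transcript over the 13 libraries, without further scaling, the large subunit genes had a median of 30.7 and the small subunit genes 17.6. The highest large subunit gene was Mrpl42 (mL42, a protein with no bacterial counterpart) at 204 CPM per kb. Mrpl12, which forms the stalk that recruits translation factors, followed at 164 CPM per kb, and Mrpl33 at 119 CPM per kb. At the other end was Mrpl47, the homolog of bacterial uL29, with 4.95 CPM per kb. Among small subunit genes the order began with Mrps21 (95.9 CPM per kb), Mrps23 (95.2) and Mrps34 (62.6). It ended with Mrps25 (4.97 CPM per kb). The order without the noted libraries was not worked out and may differ, since those libraries stood apart for leading genes. In scaled CPM, Mrpl42 had 16.8 to 71.0 in the noted libraries against 167 to 173 in the others. Mrpl12 had 280 to 535 against 131 to 149. Mrps34 had 65.5 to 118 against 41.5 to 47.7, and Mrps23 had 92.7 to 126 against 127 to 137. Annotated transcripts of the members ran from 418 to 7300 bases, so a long annotated form lowers the value of a gene that is mostly transcribed as a shorter one.

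**Figure D1:**
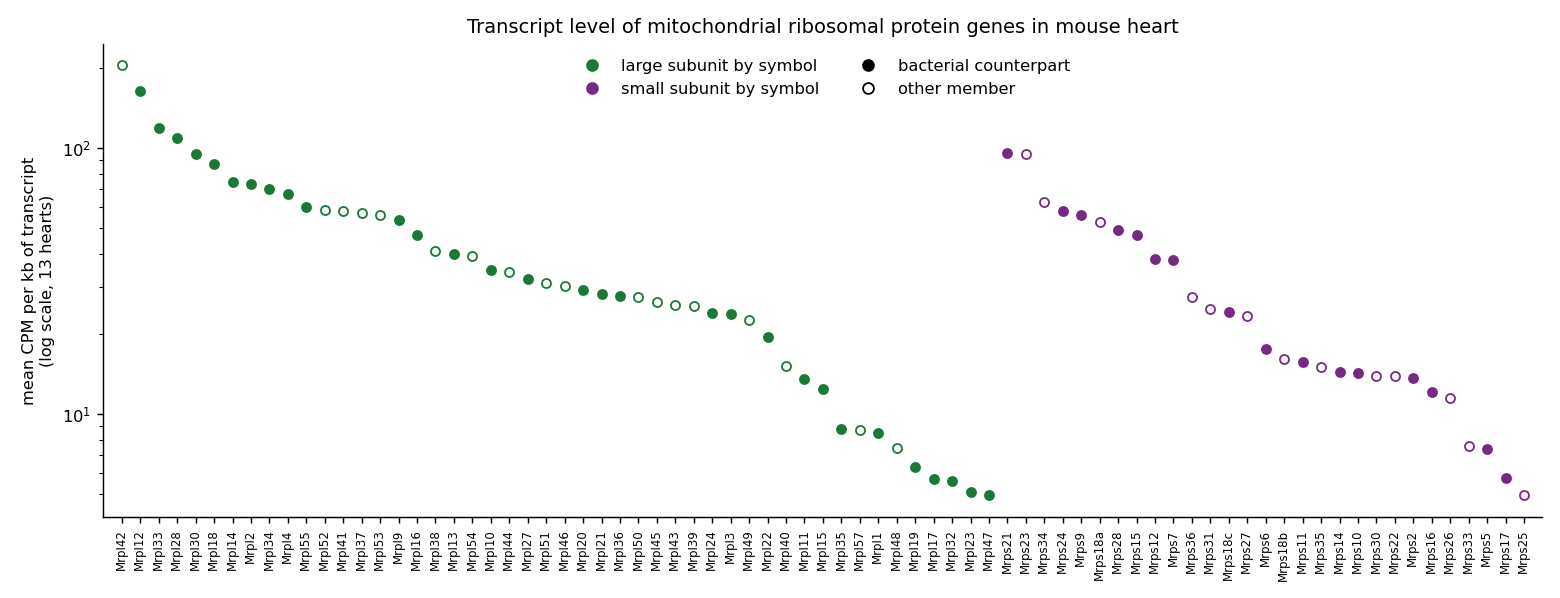
Mean CPM per kb of transcript (log axis) for each of the 77 genes over 13 hearts, large subunit genes left and small subunit genes right, each in falling order; filled points are proteins with a bacterial counterpart. Mrpl42 (204 CPM per kb) and Mrps21 (95.9 CPM per kb) lead, and Mrpl47 (4.95) and Mrps25 (4.97) are lowest. The means include the noted libraries, and the order differs without them.

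Subunit names were taken from the symbols, and 3 genes sit elsewhere than their symbol says. Mrps18a (46.5 mean CPM) and Mrps30 (46.3 mean CPM) are placed in the large subunit by structures of the mammalian ribosome, where they are called mL66 and mL65. Mrps36 (19.2 mean CPM) is now assigned to the 2-oxoglutarate dehydrogenase complex as its KGD4 subunit. By current names 46 of the 77 proteins have a bacterial counterpart and 30 are specific to mitochondria. The genes lie on 17 chromosomes, with 10 on chromosome 11 and 8 on chromosome 17. Exons of 32 members overlap exons of another annotated gene, and 9 members share at least 20% of their exon bases with one. Mrpl53 shares 88.0% with Gm42688 on the same strand, and Mrps25 shares 69.8% with Nr2c2 on the opposite strand. Mrps34 shares 63.4% with Mapk8ip3, also opposite, and 37.0% with Nme3 on the same strand. The other 6 are Mrpl19 (36.0%), Mrpl43 (33.4%), Mrps18b (30.5%), Mrpl24 (26.3%), Mrps27 (24.2%) and Mrps18c (23.2%). The remaining 23 share 0.184% to 19.9% with the gene they overlap most: Mrpl3, Mrpl9, Mrpl10, Mrpl12, Mrpl13, Mrpl14, Mrpl18, Mrpl21, Mrpl27, Mrpl33, Mrpl36, Mrpl44, Mrpl46, Mrpl47, Mrpl48, Mrpl49, Mrpl51, Mrps6, Mrps7, Mrps11, Mrps24, Mrps26 and Mrps30. Among these, Mrpl46 and Mrps11 share 173 bases with each other, and Mrpl3, Mrpl47, Mrps6 and Mrps7 each overlap a further gene. Whether counting used strand is not given in the sources used here. Reads in such stretches cannot be assigned with certainty. The annotation also lists 5 processed pseudogenes named after members, namely after Mrpl23, Mrpl48 and Mrps36. Pseudogenes under other names were not searched for.

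Promoter sequence is shown because nuclear respiratory factor 1 (NRF1), GABPA (NRF2, an ETS factor) and YY1 are known regulators of nuclear genes for mitochondria. RefSeq windows (GRCm38.p6) reaching from 250 bases before to 50 after the annotated start were found for 68 of the 77 genes, 74 windows in all. They were searched on both strands for GCGC, any base and TGCGC in a row (NRF1), CCGGAAGT (GABPA) and ATGGCGG (YY1), letters that do not contain one another. The NRF1 letters occurred in 13 member windows (17.6%), against 8.96% of the 13648 windows of all genes tested and 4.6% of all 32851 windows. The GABPA letters were in 12 windows (16.2%, against 7.11% of tested and 3.89% of all windows) and the YY1 letters in 13 (17.6%, against 7.22% and 4.05%). At least 1 of the 3 occurred in 34 member windows (45.9%, against 20.9% of tested windows), 23 of them large subunit and 11 small subunit. The letters TATAAA were in 5 member windows (6.76%), against 7.5% of tested windows. A match describes the sequence and does not show binding. Capitals mark the NRF1 or GABPA letters, on either strand, in the following stretches of 5 genes, which lie upstream of the start and overlap no annotated exon:
Mrpl12 (chr11:120484536-120484585, plus strand): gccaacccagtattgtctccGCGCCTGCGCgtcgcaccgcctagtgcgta
Mrpl45 (chr11:97315576-97315707, plus strand): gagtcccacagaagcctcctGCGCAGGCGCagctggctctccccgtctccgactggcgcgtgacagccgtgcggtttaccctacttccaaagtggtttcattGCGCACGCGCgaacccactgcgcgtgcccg
Mrpl43 (chr19:45006443-45006474, minus strand): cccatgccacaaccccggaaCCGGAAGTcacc
Mrps22 (chr9:98601680-98601710, minus strand): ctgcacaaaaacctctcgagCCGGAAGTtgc
Mrps27 (chr13:99344717-99344764, plus strand): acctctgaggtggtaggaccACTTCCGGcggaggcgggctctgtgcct
Mrpl45 held the NRF1 letters at 2 places. In Mrps22 the GABPA letters began 11 bases before the annotated start.

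The first question was whether 2 copies of the E3A allele changed the transcripts of the mitochondrial ribosome. With 9 libraries, 0 of the 77 genes passed the test in E3A/E3A against WT/WT hearts (edgeR quasi-likelihood test, adjusted p under 0.05 over 14373 genes), where 0.271% of all genes tested did. By unadjusted p under 0.05 there were 2 members, against 7.69% of all genes. DESeq2 and limma-voom with sample quality weights also called 0 members. Large subunit genes had a median log2 fold change of -0.00 (23 of 48 above 0), small subunit genes of -0.00 (13 of 29 above 0), and all genes of 0.00 (50.6% above 0). The members' log2 fold changes ran between -0.14 and 0.10. For 76 of the 77 the 95% interval lay within 1.25-fold in either direction, and for all 77 within 1.5-fold, while among all genes tested 59.0% and 79.8% did so. Mrpl23 was the exception, with a log2 fold change of -0.13 and an interval of -0.45 to 0.18.

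**Figure D2:**
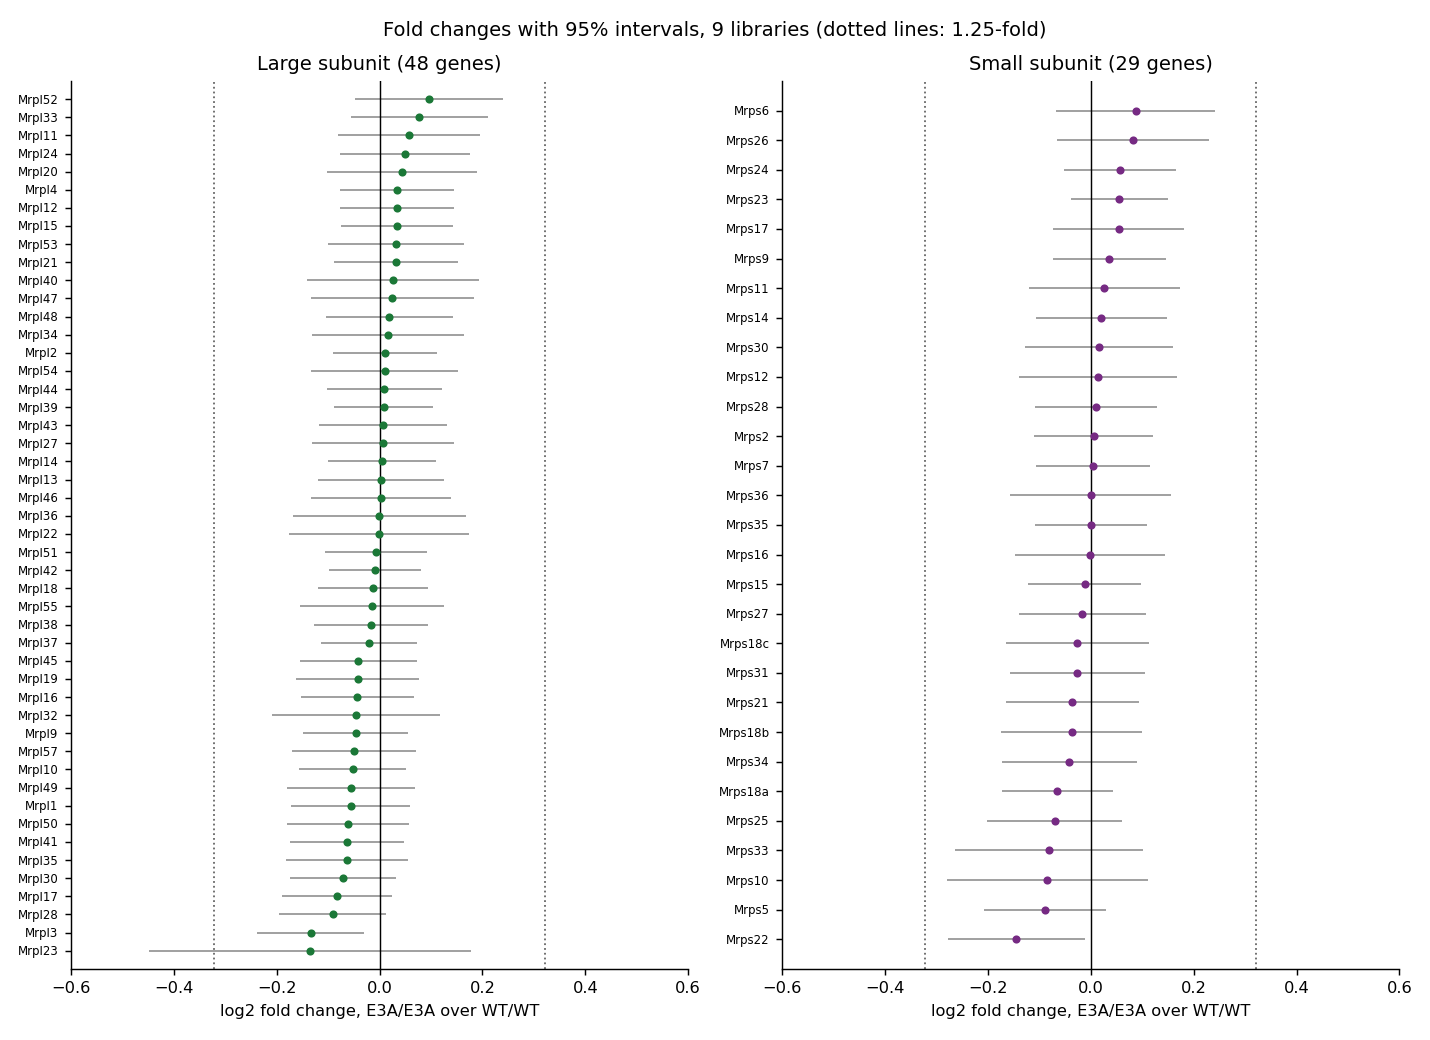
Log2 fold change of E3A/E3A over WT/WT with its 95% interval (bars) for the 48 large subunit genes (left) and the 29 small subunit genes (right), 9 libraries, 3 hearts per genotype; dotted lines mark 1.25-fold. Points lie between -0.14 and 0.10, and only the interval of Mrpl23 crosses a dotted line.

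Mrpl3 (chromosome 9, 105053239 to 105079888, plus strand, GENCODE vM21 on GRCm38), the homolog of bacterial uL3 near the peptidyl transferase centre, had the smallest p of the members. Its levels were 91.0, 92 and 86.5 CPM in E3A/E3A hearts, against 101.6, 95.7 and 98.3 CPM in WT/WT hearts. Every E3A/E3A heart was below every WT/WT heart. The log2 fold change was -0.13 (SE 0.05, 95% interval -0.24 to -0.03, unadjusted p = 0.0154), with an edgeR adjusted p of 0.456. WT/E3A hearts lay between, with 91.0, 97.3 and 91.7 CPM, overlapping the E3A/E3A hearts and the WT/WT hearts.

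Mrps22 (chromosome 9, 98588730 to 98601660, minus strand), a small subunit protein specific to mitochondria, came next. It had 17.6, 17.6 and 18.2 CPM in E3A/E3A hearts and 18.2, 18.1 and 17.5 CPM in WT/E3A hearts, against 19.7, 20.4 and 19.0 CPM in WT/WT hearts. Both groups with the allele were below WT/WT without overlap. The log2 fold change was -0.14 (SE 0.06) in E3A/E3A against WT/WT and -0.14 (SE 0.06) in WT/E3A against WT/WT. The edgeR adjusted p-values were 0.606 and 0.778. These 2 contrasts share their WT/WT hearts. Mrpl28, the homolog of bacterial bL28, was the third, with 87.1 ± 3.52 CPM in E3A/E3A and 92.9 ± 1.08 CPM in WT/WT hearts (SD, n = 3 each) and an edgeR adjusted p of 0.732.

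Some members separated E3A/E3A from WT/WT hearts without overlap, at a share near that of all genes. Of the members, 4 were higher in all E3A/E3A hearts (7.2% of all genes were) and 7 were lower (6.97%). The higher ones were Mrpl52, Mrps6, Mrps11 and Mrps24, with log2 fold changes of 0.03 to 0.10. The lower ones were Mrpl3, Mrpl17, Mrpl28, Mrpl41, Mrpl57, Mrps5 and Mrps22, between -0.14 and -0.05.

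One copy of the allele gave the same count. In WT/E3A against WT/WT hearts 0 of 77 members passed the edgeR test with 9 libraries, where 0.0209% of all genes did, and 1 had an unadjusted p under 0.05 (6.36% of all genes). That gene was Mrps22. DESeq2 and limma-voom with sample quality weights called 0. The median log2 fold change was 0.01 for large subunit genes (29 of 48 above 0) and -0.02 for small subunit genes (13 of 29 above 0), beside -0.00 for all genes (49.5% above 0). Intervals of 76 members lay within 1.25-fold, against 58.1% of all genes. Mrpl27, the homolog of bacterial bL27 near the peptidyl transferase centre, had 21.9 ± 1.5 CPM in WT/E3A and 23.6 ± 0.725 CPM in WT/WT hearts (SD, n = 3 each), with an edgeR adjusted p of 0.823. Without overlap, 1 member was higher in WT/E3A hearts, Mrpl18, a protein that binds the 5S rRNA in bacteria, and 3 were lower, Mrpl9, Mrpl57 and Mrps22 (6.35% and 6.37% of all genes).

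Between 2 copies and 1, the small subunit gene Mrps6 had the smallest p. It had 18.0, 17.2 and 16.8 CPM in E3A/E3A hearts, against 14.6, 16.7 and 14.7 CPM in WT/E3A hearts, and WT/WT hearts had 16.0, 16.3 and 16.7 CPM. All E3A/E3A hearts were above all others, narrowly so, since their lowest value was 16.8 CPM and the highest of the rest 16.7 CPM. The log2 fold change was 0.17 (SE 0.07) against WT/E3A, with an edgeR adjusted p of 0.717, and 0.09 (SE 0.07) against WT/WT, with an edgeR adjusted p of 0.865. Its exons share 19.9% of their bases with Gm49711 and 10.4% with Slc5a3 on the same strand. In E3A/E3A against WT/E3A hearts 0 of 77 members passed (0.0417% of all genes did), 1 had an unadjusted p under 0.05 (6.91%), and DESeq2 and limma-voom with sample quality weights called 0. Median log2 fold changes were -0.02 for large subunit genes (16 of 48 above 0) and -0.01 for small subunit genes (13 of 29 above 0), where 50.8% of all genes were above 0. In this comparison 75 members had intervals within 1.25-fold (58.2% of all genes did). Without overlap, 2 members were higher, Mrps6 and Mrps23 (5.82% of all genes), and 0 were lower (5.29%). A test of any difference among the 3 genotypes called 0 members (0.167% of all genes), with Mrpl3 alone under an unadjusted p of 0.05 (7.31%).

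The members varied little between hearts of 1 genotype. In the 9 libraries the biological coefficient of variation, the fitted spread beyond counting error, had a median of 5.75% over the members and ran between 4.87% and 10.1%. The median was 6.73% over the 10259 genes in the members' range of mean CPM. Mrpl42, the gene with the highest level per kb, had the lowest value, 4.87%, and its levels were 179 ± 2.63 CPM in E3A/E3A, 179.8 ± 2.58 CPM in WT/E3A and 180.3 ± 2.66 CPM in WT/WT hearts (SD, n = 3 each). Mrpl23, counted with the fewest reads, was the widest at 10.1%.

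Values in single hearts of the 9 libraries show how close the genotypes lay for members at both ends of the range. Mrpl12 had 149, 158 and 144 CPM in E3A/E3A hearts and 147, 139 and 155 CPM in WT/E3A hearts, against 148, 146 and 146 CPM in WT/WT hearts. The 3 genotypes overlapped, with a log2 fold change of 0.03 (SE 0.05) in E3A/E3A against WT/WT hearts and an edgeR adjusted p of 0.940. Mrps36 had 26.7, 28.2 and 24.9 CPM in E3A/E3A hearts and 24.1, 26.9 and 27.0 CPM in WT/E3A hearts, against 28.5, 27.0 and 24.5 CPM in WT/WT hearts. It too overlapped between all genotypes. Mrpl23 had 3.75, 3.19 and 2.66 CPM in E3A/E3A hearts and 3.54, 3.34 and 4.18 CPM in WT/E3A hearts, against 3.38, 3.71 and 3.59 CPM in WT/WT hearts, and the E3A/E3A values spread on both sides of the lowest WT/WT value.

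Splitting each subunit by origin gave like values. In E3A/E3A against WT/WT hearts the median log2 fold change was -0.00 for the 30 large subunit genes with a bacterial counterpart and -0.00 for the 18 specific to mitochondria. For the small subunit it was 0.01 for 16 genes with a counterpart and -0.03 for 12 mitochondria-specific ones, of which 3 were above 0. By genotype mean, E3A/E3A hearts were highest for 13 of the 48 large subunit genes, WT/E3A hearts for 23 and WT/WT hearts for 12. For the 29 small subunit genes the counts were 7 in E3A/E3A, 9 in WT/E3A and 13 in WT/WT hearts. These counts describe differences that did not pass a test.

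Summed over a subunit, the genotypes could not be separated. In the 9 libraries large subunit genes summed to 2518 ± 65.5 CPM in E3A/E3A, 2549 ± 41.7 CPM in WT/E3A and 2547 ± 37.2 CPM in WT/WT hearts (SD, n = 3 each). Small subunit genes summed to 1159 ± 32.6 CPM in E3A/E3A, 1155 ± 25.6 CPM in WT/E3A and 1157 ± 12.3 CPM in WT/WT hearts. The ranges of the 3 genotypes overlapped for both sums. The ratio of the large to the small sum was 2.16, 2.18 and 2.18 in E3A/E3A hearts, 2.22, 2.22 and 2.19 in WT/E3A hearts and 2.22, 2.19 and 2.19 in WT/WT hearts. The E3A/E3A hearts were thus the lowest 3 of the 9, with a mean of 2.17 ± 0.013, against 2.21 ± 0.014 in WT/E3A and 2.20 ± 0.017 in WT/WT hearts. This is a description of a sum over chosen genes and was given no test. With all 13 libraries the order was lost, since the noted E3A/E3A hearts had 2.33 and 2.25, the noted WT/E3A heart 2.32 and the noted WT/WT heart 2.31.

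**Figure D3:**
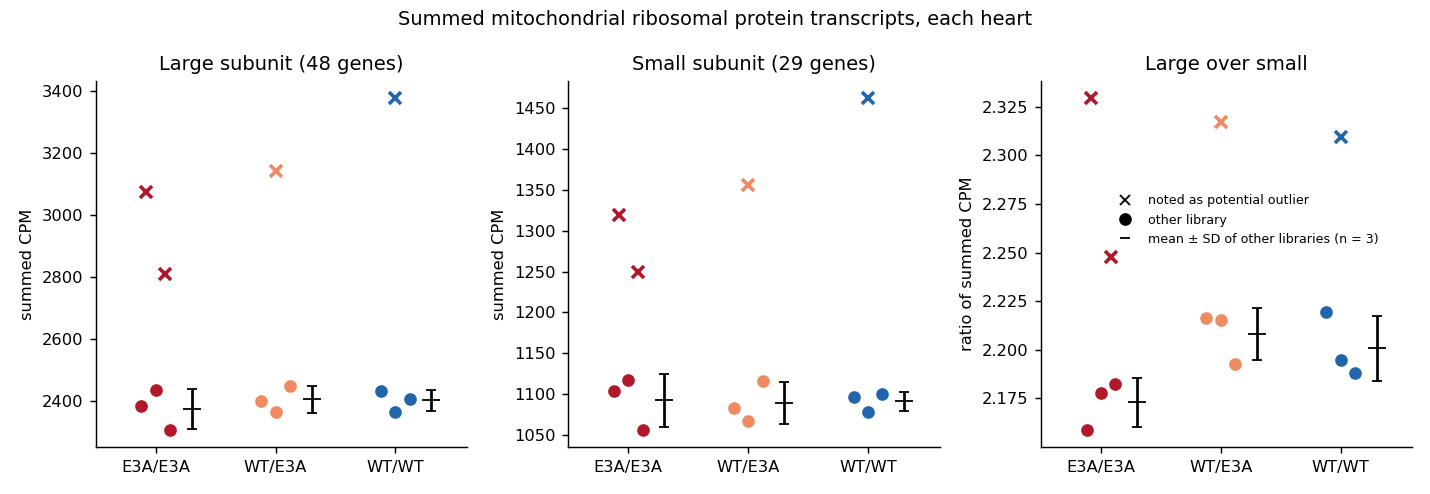
Summed CPM of large subunit genes (left), of small subunit genes (middle) and their ratio (right) in each heart, scaled over 13 libraries, by genotype; crosses are the noted libraries and bars the mean ± SD of the other 3 hearts. The noted hearts lie above all others of the 3 panels (2810 to 3379 summed CPM against 2304 to 2448 for the large subunit).

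The 4 noted libraries differed from the other 9 in most members, and in opposite directions for different genes. All 4 were above all 9 for 38 of the 77 (25.9% of all genes) and below all 9 for 16 (27.1%). The mean log2 difference, noted minus other, had a median of 0.29 over large subunit genes and 0.26 over small subunit genes, beside -0.02 over all genes. The genes of the next paragraph were chosen for the size of this difference, after the values were seen. The 4 hearts come from 3 genotypes, so the difference is between libraries and not between genotypes, and its cause was not tested. Markers of other cells also differed, in both directions within a list. Of 6 fibroblast markers 3 were higher on average in the noted libraries and 3 lower (median log2 difference 0.05), of 6 endothelial markers 2 and 4 (-0.04), and of 6 macrophage markers 3 and 3 (-0.06). Fibroblast markers summed to up to 1194 CPM in E3A/E3A, 2263 CPM in WT/E3A and 1849 CPM in WT/WT hearts with the noted libraries, against at most 960 CPM, 945 CPM and 875 CPM in the same order without them.

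Mrps36 had 4.78 and 5.40 CPM in the noted E3A/E3A hearts, 1.62 CPM in the noted WT/E3A heart and 1.72 CPM in the noted WT/WT heart, against 22.8 to 26.8 CPM in the other 9. Mrpl42 had 51.2 and 71.0 CPM in the noted E3A/E3A hearts, 16.8 CPM in the noted WT/E3A heart and 25.3 CPM in the noted WT/WT heart, against 167 to 173 CPM in the other 9. The log2 differences were -3.04 for Mrps36 and -2.26 for Mrpl42, and Mrps33 (-1.36) and Mrpl32 (-1.30) followed. In the other direction, Mrpl12 had 378 and 280.1 CPM in the noted E3A/E3A hearts, 513 CPM in the noted WT/E3A heart and 535 CPM in the noted WT/WT heart, against 131 to 149 CPM in the other 9 (log2 difference 1.57). Mrpl52 (1.70), Mrps26 (1.56), Mrps12, the decoding-centre protein homologous to bacterial uS12 (1.25), Mrpl28 (1.24) and Mrpl33 (1.23) were also higher in all 4. For each of these genes the noted WT/E3A and WT/WT hearts were further from the other 9 than the noted E3A/E3A hearts were.

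**Figure D4:**
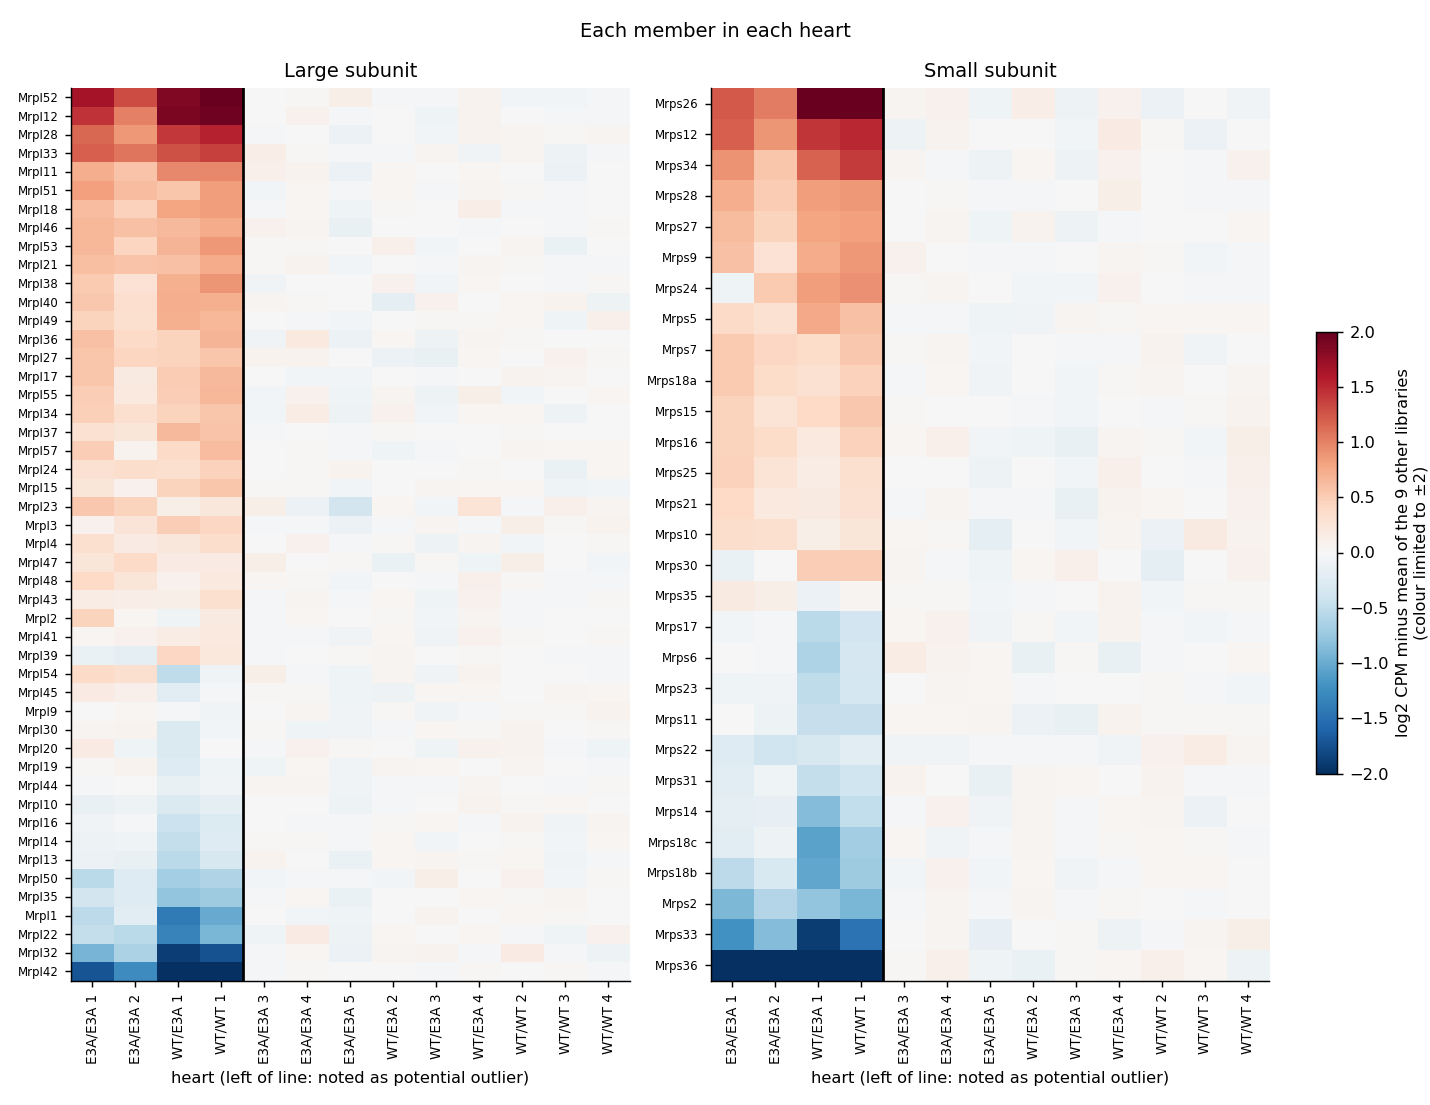
Log2 CPM of each member in each heart minus its mean over the 9 other libraries (colour, limited to ±2), with the 4 noted libraries left of the line; genes are sorted by the difference. Red and blue fill the 4 noted columns, with Mrpl52 and Mrps26 at the top and Mrpl42 and Mrps36 at the bottom, and the 9 other columns are pale.

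Transcript GC content moved with this difference. Across the 77 genes the correlation with the log2 difference was r = 0.40 (Spearman rho 0.41), and across 13733 genes with a GC value it was r = 0.68; these points are genes of the same 13 libraries and carry no p. Of the 26 members with the highest GC (52.7% to 60.6%), 23 were higher in the noted libraries on average, with a median log2 difference of 0.46. Of the 25 between (48.4% to 52.6%), 13 were higher, with a median of 0.06. Of the 26 with the lowest GC (39.6% to 48.2%), 13 were higher, with a median of 0.01. The middle and lowest groups thus had like medians, and the group with the highest GC stood above both. Mrps36 (47.2% GC) and Mrps26 (49.2% GC) lay far apart at a like GC content. For transcript length the correlation was r = 0.01 across the members and r = -0.20 across the 13733 genes. The part of base composition in these differences was not tested.

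**Figure D5:**
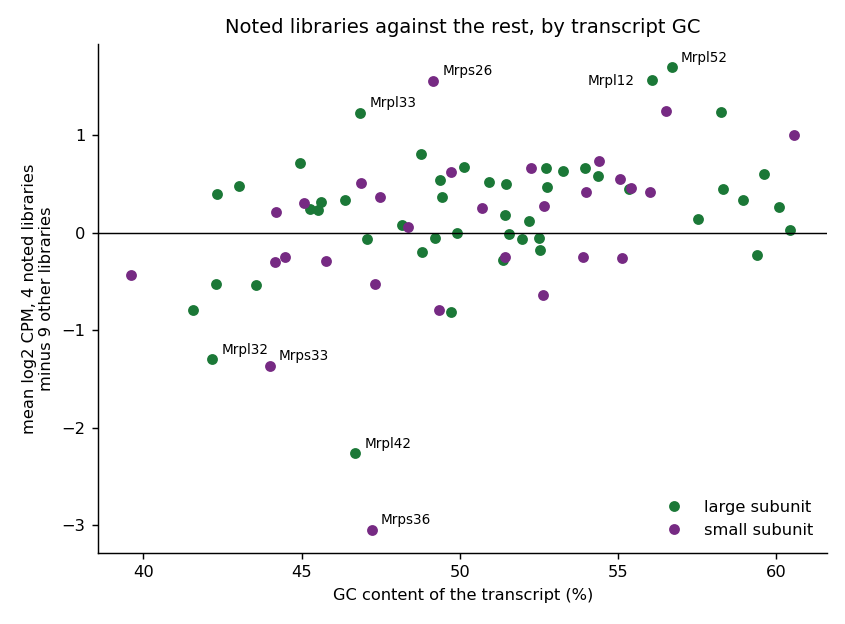
Mean log2 CPM of the 4 noted libraries minus that of the other 9 (vertical) against transcript GC content in percent (horizontal), 1 point per member, coloured by subunit. The cloud rises with GC (r = 0.40, 77 genes), while Mrps36 at -3.04 and Mrps26 at 1.56 stand apart at 47.2% and 49.2% GC.

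With all 13 libraries the same comparisons had wider errors. In 0 of 77 members did E3A/E3A differ from WT/WT by the edgeR test (0.00695% of 14387 genes did), and 0 had an unadjusted p under 0.05 (1.2% of all genes). The counts were 0 and 0 in WT/E3A against WT/WT (0% and 0.813% of all genes), 0 and 0 in E3A/E3A against WT/E3A (0% and 1.45%), and 0 and 0 for any genotype difference (0% and 1.07%). DESeq2 and limma-voom with sample quality weights also called 0 members. The biological coefficient of variation over all genes was 28.9% with 13 libraries and 7.85% with 9, and 95% intervals within 1.25-fold were held by 19 members in E3A/E3A against WT/WT hearts, 20 in WT/E3A against WT/WT hearts and 16 in E3A/E3A against WT/E3A hearts. For Mrpl42 the means were 126 ± 59.6 CPM in E3A/E3A hearts (SD, n = 5), 131 ± 76.4 CPM in WT/E3A and 134 ± 72.4 CPM in WT/WT hearts (n = 4 each).

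Median log2 fold changes with 13 libraries were 0.01 for large and 0.01 for small subunit genes in E3A/E3A against WT/WT hearts, beside -0.02 for all genes, and 40 of 77 members were above 0 (43.7% of all genes). They were -0.03 and -0.03 in WT/E3A against WT/WT hearts, where 15 of 77 members were above 0 and 49.4% of all genes were. Without WT/WT replicate 1 the large subunit median of that comparison became 0.05, and without WT/E3A replicate 1 it became -0.10. In E3A/E3A against WT/E3A hearts they were 0.03 and 0.06, with 50 of 77 members above 0 (45% of all genes). Groups separated without overlap for 0 members in either direction, against 0.299% of all genes higher and 0.563% lower in E3A/E3A than in WT/WT, 0.598% and 0.542% in WT/E3A than in WT/WT, and 0.507% and 0.487% in E3A/E3A than in WT/E3A. The members with the smallest p were Mrps22 (log2 fold change -0.18), Mrpl54 (0.18) and Mrps30 (-0.15) in E3A/E3A against WT/WT, all with edgeR adjusted p-values of 1. In WT/E3A against WT/WT they were Mrps22 (-0.13), Mrps16 (-0.14) and Mrps6 (-0.13). In E3A/E3A against WT/E3A they were Mrpl39 (-0.20), Mrps6 (0.25) and Mrpl54 (0.24). Mrps22 and Mrps6 kept the direction they had with 9 libraries, while Mrpl54 moved to -0.02 in E3A/E3A against WT/E3A with 9.

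Titles of the samples begin with C2, C3, C4 or C6. What these prefixes stand for is not given in the sources used here, and comparisons were also made within them. Within C3, the prefix that holds all 3 genotypes, large and small subunit medians were -0.05 and -0.03 in E3A/E3A against WT/WT (2 hearts against 1), -0.01 and -0.02 in WT/E3A against WT/WT (1 against 1) and -0.04 and -0.04 in E3A/E3A against WT/E3A (2 against 1). Within C2, where all 3 libraries are noted ones, E3A/E3A against WT/WT gave -0.12 and -0.01. Within C4, without its noted library, E3A/E3A against WT/E3A gave 0.01 and 0.05 (1 heart against 2). Mrpl3 was lower in E3A/E3A than in WT/WT within C2 (log2 difference -0.24) and within C3 (-0.20). Mrps22 was lower within C2 (-0.13) and C3 (-0.13), and Mrps6 was higher in E3A/E3A than in WT/E3A within C3 (0.25) and, without the noted library, within C4 (0.13). With the noted WT/E3A heart the C4 difference of Mrps6 was 0.32. Mrpl3, Mrps22 and Mrps6 were named for their small p with 9 libraries. The C3 hearts and the C4 hearts without a note are among those 9, so a like direction there is not separate evidence. The C2 hearts are not among the 9, but Mrps22 also had the smallest p with all 13. C6 held WT/WT hearts alone and gives no comparison.

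The rest of the mitochondrial translation pathway was counted beside the ribosomal proteins. The lists held 6 further ribosome components, 23 assembly factors, 17 translation factors and 22 tRNA synthetases. Further lists held 8 genes of mitochondrial DNA transcription and maintenance and 13 regulators of mitochondrial biogenesis. In the 9 libraries 0 of these genes were called in any of the 3 pairwise comparisons, and the same held with 13 libraries. Few genes of any kind were called with 9: 0.271% in E3A/E3A against WT/WT, 0.0209% in WT/E3A against WT/WT and 0.0417% in E3A/E3A against WT/E3A. A count of 0 in short lists therefore does not set them apart from other genes. In E3A/E3A against WT/WT hearts the list medians, in the order of the lists, were 0.02, -0.06, -0.05, -0.05, -0.08 and 0.01 (log2), beside 0.00 for all genes. Of the tRNA synthetases 5 were above 0 and 17 below, with 9 and with 13 libraries. Tufm, the mitochondrial elongation factor Tu, averaged 177 CPM in E3A/E3A and 175 CPM in WT/WT hearts (log2 fold change 0.02, SE 0.05, edgeR adjusted p = 0.978). Tfam, which packages and transcribes mitochondrial DNA, averaged 47.3 CPM in E3A/E3A and 51.0 CPM in WT/WT hearts (log2 fold change -0.11, SE 0.06, edgeR adjusted p = 0.736). Of the factors whose letters were searched in the promoters, Nrf1 had a log2 fold change of 0.10 (SE 0.07), Gabpa of -0.08 (SE 0.06) and Yy1 of 0.04 (SE 0.06), with edgeR adjusted p-values of 0.814, 0.821 and 0.936. Ppargc1a, a coactivator of mitochondrial biogenesis, averaged 240 CPM in E3A/E3A and 164 CPM in WT/WT hearts (log2 fold change 0.55, SE 0.42, edgeR adjusted p = 0.865). The 13 members with NRF1 letters had a median log2 fold change of -0.04 in that comparison, the 12 with GABPA letters -0.00, the 13 with YY1 letters -0.02 and the 34 with a window but none of them -0.00.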

How the data were processed

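Per the submitters' processing notes, reads (100-nt single-end, HiSeq 2500) were aligned with STAR 2.4.0 to mm10 (GRCm38) and counted with featureCounts 1.4.4. The deposited values are the authors' raw counts of reads for each gene symbol. Strand and multi-mapping settings are not given in the sources used here. Counts were tested with edgeR 4.0.16 under R 4.3.3 (low-count filter filterByExpr, TMM factors, robust quasi-likelihood fit over the 3 genotypes, Benjamini-Hochberg adjustment over all genes tested, calls at 0.05), with 13 and with 9 libraries. DESeq2 1.42.0 and limma 3.58.1 were alternatives. CPM of single hearts and means ± SD were scaled by TMM over the 9 or 13 libraries tested, and in the text on noted libraries over all 13. Differences between noted and other libraries and within prefixes are of log2 (CPM + 0.1). Gene lengths, GC content and exon overlaps came from GENCODE vM21. The scripts' statistics were tested on simulated counts.

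Members named are the 3 with the smallest p in each pairwise comparison and library set, the 3 highest and the lowest per subunit by CPM per kb, the one nearest the CPM minimum, those whose exons overlap other genes, and Mrps18a, Mrps30 and Mrps36. Other members, named for groups that did not overlap, for a promoter match or for their level in noted libraries, were chosen after their values were seen. Members, gene lists and motifs were chosen with earlier results of these data known. The labels describe separate hearts, so p-values measure the spread between hearts. No molecular identifiers were used, so reads are not independent molecules. The fewest reads of a member in a library were 47. Replicate numbers follow accession order and pair no samples.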

Additional observations from a re-analysis of the deposited data

Results flagged for a closer look

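Within each genotype of the 13 libraries, 72 groups of values (summed levels, the ratio, and 21 named members) were searched for a heart whose gap to its nearest neighbour took up most of the group's range. Chance marks about 1 in 20 such groups, and 24 hearts' values were marked. All 24 belonged to a library noted as a potential outlier, WT/E3A replicate 1 or WT/WT replicate 1. Among 5 E3A/E3A hearts, 2 of them noted, the search marked none. It looks only at the gap to the nearest neighbour, so 2 noted hearts on the same side can hide each other. For Mrpl42 the noted E3A/E3A hearts had 51.2 and 71.0 CPM, against 167 to 172 CPM in the other E3A/E3A hearts. The lack of a mark there does not show that these noted hearts were like the rest.

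WT/E3A replicate 1 had the highest summed large subunit level of its genotype (3143 CPM) and the highest Mrps30 (62.2 CPM), Mrpl39 (76.9), Mrpl3 (124), Mrpl28 (226), Mrpl18 (157), Mrpl12 (513), Mrpl33 (101) and Mrps34 (101) levels. It had the lowest Mrpl42 (16.8 CPM), Mrps23 (92.7 CPM) and Mrps36 (1.62 CPM) levels.

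WT/WT replicate 1 had the highest summed large subunit level (3379 CPM) and summed small subunit level (1463 CPM) of its genotype. It was also highest for Mrpl39 (66.7 CPM), Mrpl28 (246), Mrpl27 (32.0), Mrpl18 (163), Mrpl12 (535), Mrpl33 (107), Mrps34 (118) and Mrps18a (58.5 CPM). It was lowest for Mrpl42 (25.3 CPM) and Mrps36 (1.72 CPM). The part of library composition in these values was not tested.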

How the results depend on the processing

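Of 156 combinations of comparison, library set and setting, 0 called a member. Few genes of any kind were called, 0 to 117 per combination, so this count does not set members apart from other genes. The combinations also reuse the same hearts and are not independent. Settings were RLE and upper quartile factors, no filter on low counts, DESeq2, limma-voom with sample quality weights, the title prefix as a block, the outlier note as a term (13 libraries), a member minimum of 5 CPM and leaving out each library. The smallest adjusted p of any member over these was 0.251 (Mrps22, limma-voom, E3A/E3A against WT/WT, 13 libraries). Subunit medians moved by less than the spread between replicates under every setting, assignment by structure included. With 9 libraries, leaving out 1 library gave large subunit medians of -0.03 to 0.02 in E3A/E3A against WT/WT, -0.01 to 0.03 in WT/E3A against WT/WT and -0.03 to 0.00 in E3A/E3A against WT/E3A. With 13 they ran from -0.04 to 0.11, -0.10 to 0.05 and -0.00 to 0.11 in the same order. Of 2205 values of named members, 51 moved by more than their standard error, 21 of them under the title prefix block. The sign changed without a call in 236. With 13 libraries Mrpl12 ran from -0.43 to 0.65 in E3A/E3A against WT/WT. For Mrpl3 in E3A/E3A against WT/WT with 9 libraries the block gave -0.20, and adjusted p-values ran from 0.284 to 0.889. Mrps22 stayed between -0.17 and -0.12 in that comparison, and Mrps6 between 0.14 and 0.24 in E3A/E3A against WT/E3A. The title prefix block groups hearts by prefix and pairs none of them. No paired analysis was possible because the labels give no replicate numbers by which a heart of one genotype could be matched to one of another.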
